A study of Mus musculus with 24 samples.

Results

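The pigment genes followed here are 10 genes of the melanin pathway and of the melanosome, the organelle in which melanin is made: Tyr, Tyrp1, Dct, Pmel, Mlana, Mitf, Oca2, Slc45a2, Slc24a5 and Gpr143. They were taken by name, with earlier results of these data known, and make up 10 of the 22881 gene symbols on the array and 16 of its 56488 probes. Total RNA of 7 mouse cell lines was hybridised to 24 single-colour Agilent whole-mouse expression arrays, with 1 sample per array. Of these lines 5 are melanoma cells derived from B16F1, a mouse melanoma line, and all 5 carry GFP, a green fluorescent protein, in their names: B16F1-GFP-M (called M here, 3 arrays), B16F1-GFP-D (D, 4 arrays), B16F1-GFP-DB#1 (DB#1, 4 arrays), B16F1-GFP-DB#2 (DB#2, 3 arrays) and B16F1-GFP-DB#3 (DB#3, 3 arrays). M is the parental line, D was isolated after about a year of tumour dormancy in mice under immunotherapy, and the DB lines come from a later generation at a brain site; all were amplified in culture before they were measured. The other 2 lines are labelled only as myeloid cells named M0 (4 arrays) and J365 (3 arrays), and the labels do not say from which cells they were made. D and each DB line is a single isolated line, and nothing in the labels says that its arrays came from separate cultures, so p-values measure only the spread between these samples, which may be technical. The comparisons ask whether cells recovered from dormancy kept the pigment programme of the parental melanoma, and how far the melanoma lines stood from the myeloid lines.

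Melanin is made from tyrosine inside melanosomes, and the pathway is read as a marker of how differentiated a melanocyte or melanoma cell is. Tyr encodes tyrosinase, the enzyme that starts melanin synthesis and limits its rate, and Tyrp1 and Dct encode related enzymes that act further along the eumelanin branch. Pmel forms the fibrils on which melanin is laid down, Mlana is a melanosomal membrane protein needed for Pmel maturation, Gpr143 is a receptor of the melanosome membrane, and Oca2, Slc45a2 and Slc24a5 are melanosomal transport proteins whose loss causes albinism. Mitf is the transcription factor that activates most of these genes in melanocytes, by binding sequences around CATGTG, and it also acts in osteoclasts and mast cells.

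Promoter windows show which of these letters lie at the start sites of the genes compared below. RefSeq windows of 300 bases, from 250 before to 50 after a start site on GRCm38.p6, were listed for 6 of the 10 genes (Tyr, Tyrp1, Dct, Mitf with 3 start sites, Oca2 and Slc24a5). The windows of the 3 enzymes, of Slc24a5 and of 1 Mitf start site are printed 5′ to 3′ because they hold the motifs searched, which are in capitals: TCATGTG, which contains CATGTG, and, for Mitf, the cyclic AMP response element TGACGTCA. The windows are Tyr (chr7:87493463-87493762, minus strand), Tyrp1 (chr4:80833963-80834262, plus strand), Dct (chr14:118052197-118052496, minus strand), Slc24a5 (chr2:125067877-125068176, plus strand) and Mitf at start site 3 of those listed (chr6:97991533-97991832, plus strand).
Tyr: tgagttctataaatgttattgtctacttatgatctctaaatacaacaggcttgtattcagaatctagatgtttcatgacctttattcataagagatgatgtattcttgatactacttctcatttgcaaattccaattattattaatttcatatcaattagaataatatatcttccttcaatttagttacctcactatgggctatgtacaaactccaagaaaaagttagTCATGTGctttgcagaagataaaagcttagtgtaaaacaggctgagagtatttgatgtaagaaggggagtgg
Tyrp1: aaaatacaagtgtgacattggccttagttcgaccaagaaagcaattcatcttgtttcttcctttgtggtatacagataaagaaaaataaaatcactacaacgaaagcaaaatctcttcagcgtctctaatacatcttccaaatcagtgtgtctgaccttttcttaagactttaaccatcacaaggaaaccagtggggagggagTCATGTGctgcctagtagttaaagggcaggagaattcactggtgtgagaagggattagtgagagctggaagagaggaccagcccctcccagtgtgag
Dct: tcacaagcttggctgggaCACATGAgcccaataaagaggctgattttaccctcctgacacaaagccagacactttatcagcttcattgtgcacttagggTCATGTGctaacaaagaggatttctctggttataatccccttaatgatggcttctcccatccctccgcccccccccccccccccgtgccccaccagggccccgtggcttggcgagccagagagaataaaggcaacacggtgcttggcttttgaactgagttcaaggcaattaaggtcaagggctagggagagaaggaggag
Slc24a5: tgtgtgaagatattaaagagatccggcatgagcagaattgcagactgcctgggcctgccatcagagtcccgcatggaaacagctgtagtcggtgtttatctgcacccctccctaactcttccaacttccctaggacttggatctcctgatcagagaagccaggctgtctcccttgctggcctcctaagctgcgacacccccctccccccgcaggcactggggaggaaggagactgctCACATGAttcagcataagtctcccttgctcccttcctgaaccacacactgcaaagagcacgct
Mitf: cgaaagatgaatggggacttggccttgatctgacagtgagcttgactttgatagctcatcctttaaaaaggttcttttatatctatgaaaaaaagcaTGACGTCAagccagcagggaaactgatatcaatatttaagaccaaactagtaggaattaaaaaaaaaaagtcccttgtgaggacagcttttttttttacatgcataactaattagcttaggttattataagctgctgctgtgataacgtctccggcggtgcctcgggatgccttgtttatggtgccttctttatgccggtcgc

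Read on both strands, TCATGTG was in the windows of 4 of the 6 genes (Tyr, Tyrp1, Dct and Slc24a5) and in 3.77% of all 32851 windows of this length. Counted from the start site, it lay at -22 in Tyr and at -47 in Tyrp1. Dct held 2 copies, at -151 and, on the opposite strand, at -232, and the Slc24a5 copy, also on the opposite strand, lay at -13. The shorter CATGTG was in Oca2 as well and in 14.2% of all windows. CACGTG, the other sequence that Mitf binds, was in 0 of the 8 windows of these genes and in 7.15% of all windows. TGACGTCA was in 1 of the 8, at -153 from Mitf start site 3, and in 1.79% of all windows. These are matches of letters, and the arrays measured no binding.

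All 10 pigment genes were expressed in all 5 melanoma lines, and every one of the 16 probes was well above background, by the scanner software's mark, on all 17 melanoma arrays. Values are log2 signals less the 75th percentile of the array's probes, so 0 is the level of that percentile; levels of different genes rest on different probes and are not compared with each other. The array of D replicate 3 stood apart, with 89.9% of its probes marked well above background against 43.6% to 53.8% on the other arrays. Its 75th percentile, which was subtracted from each of its values, was 574 intensity units, against 271 to 484 on the other arrays. Before scaling, Mitf and the brightest Tyr probe read 34292 and 4638 on D replicate 3. They read 56133 and 6417 on D replicate 1, 35574 and 4414 on replicate 2, and 35464 and 4216 on replicate 4. How far the percentile set the low values of D replicate 3 was not tested. D replicate 1 had the lowest share of probes marked well above background, 43.6%. It also had the highest net signal of the negative control spots, 36.1 intensity units against 23.6 to 27.7 elsewhere. The part of D replicate 1 in the results below was not tested. Values without it are given where a pigment gene, on its brightest probe, was then newly called between or among the melanoma lines. The melanoma label held: 6 other melanocyte markers (Trpm1, described below, among them) averaged 4.48 to 5.77 in melanoma and -4.72 to -3.90 in myeloid samples, while 12 blood cell markers averaged -4.60 to -2.69 and 2.08 to 2.98, the highest melanoma value being that of D replicate 3 (-3.66 was the highest without it). The mean of the 6 melanocyte markers also differed between melanoma lines. It was 5.59 to 5.75 in M and 5.56 to 5.77 in DB#2 against 4.84 to 4.96 in DB#1 and 4.78 to 5.12 in DB#3. In D it was 5.69 on replicate 1 and 4.48 to 5.01 on the other 3. Trpm1 alone differed from M by -2.29 in D, -3.35 in DB#1 and -3.34 in DB#3, and the mean without Trpm1 is not given. D, DB#1 and DB#3 are also the lines with the lower dimmer Tyr probe, and this relation was not tested. Between 4 and 10 of the 12 blood markers were well above background on a melanoma array, 10 of them on D replicate 3 and at most 7 elsewhere. Of the 6 melanocyte markers, 2 were well above background on each myeloid array.

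With the brightest probe of each gene, no pigment gene was called between M and a line recovered from dormancy, while the dimmer Tyr probe was lower in D, DB#1 and DB#3 and the Oca2 estimates were below M in all 4 lines without passing the test. On the brightest probes, 0 of the 10 passed against M in D, DB#1, DB#2 or DB#3 by limma's moderated test at an adjusted p under 0.05, where 2.97%, 3.69%, 3.44% and 2.76% of all genes tested were called in the same comparisons. An unadjusted p under 0.05 was reached by 1 gene in D, 0 in DB#1, 1 in DB#2 and 3 in DB#3. Over all 10 pairs of melanoma lines, 1 of 100 tests was called, near the 3.04% called over all genes in the same pairs, and 9 had an unadjusted p under 0.05, and in 87 of the 100 the 95% interval of the difference lay wholly within 1 log2 unit of 0, that is within a 2-fold change either way. A test for any difference among the 5 lines called 0 of the 10 genes (1 with an unadjusted p under 0.05) and 7.19% of all genes. No share of all genes is given for an unadjusted p under 0.05 or for intervals within 1 log2 unit. None is given for lines whose arrays do not overlap, so these counts and separations, here and below, are descriptions.

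**Figure D1:**
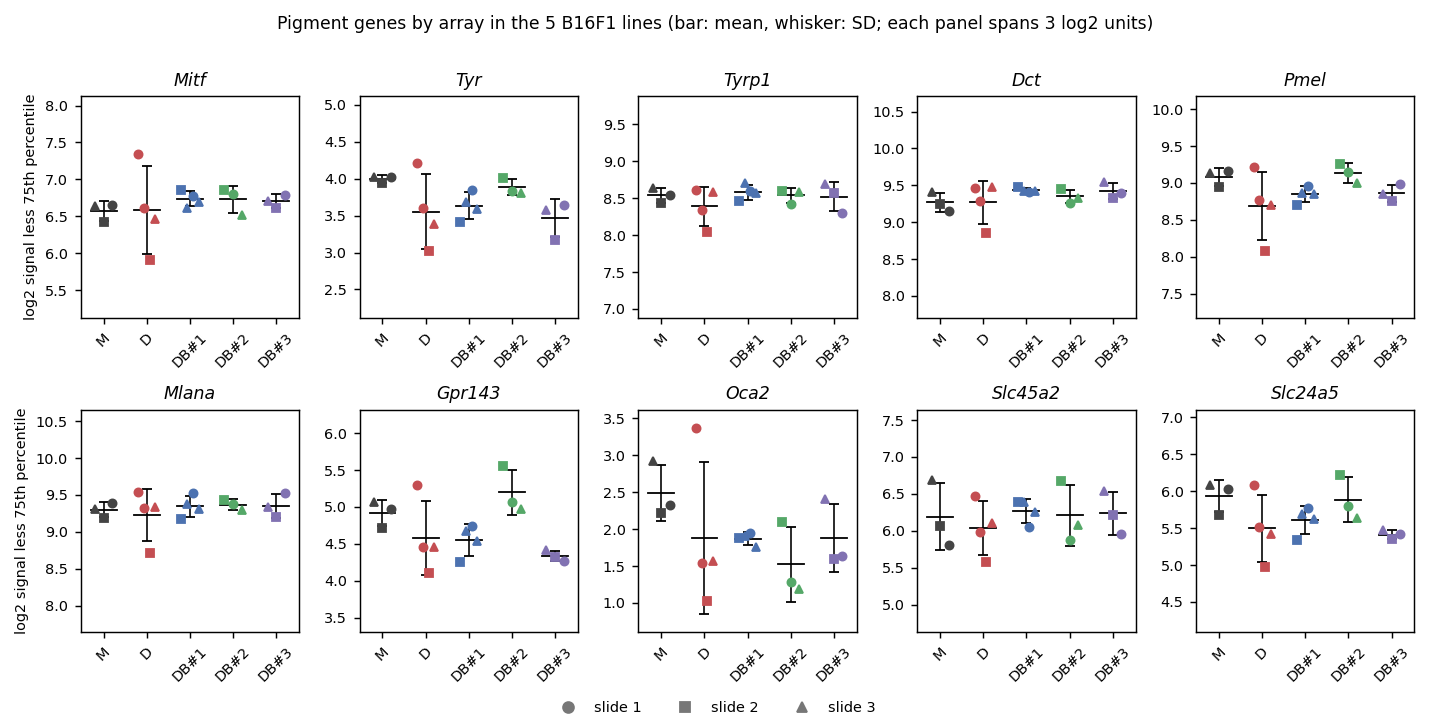
Normalised log2 signal (y axis, log2 signal less the array's 75th percentile) of the brightest probe of each pigment gene on every array of the 5 melanoma lines (x axis), with the marker giving the slide, the bar the mean and the whisker the SD; each panel spans 3 log2 units. The 4 D arrays are spread more widely than those of most other lines, with D replicate 1 high or near the top and D replicate 3 lowest, as for Oca2 (3.38 and 1.02). The 75th percentile subtracted on D replicate 3 was the highest of all arrays (574 intensity units).

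On its brightest probe Mitf, the regulator, had line means within its replicate error. Its values were 6.64, 6.42 and 6.65 in M, 7.35, 6.61, 5.90 and 6.46 in D, 6.86, 6.62, 6.78 and 6.70 in DB#1, 6.86, 6.81 and 6.52 in DB#2, and 6.71, 6.61 and 6.79 in DB#3. D replicates 1 and 3 were the highest and the lowest of the 17 arrays, and the lines overlapped. The line means ran from 6.57 in M to 6.74 in DB#1, a spread of 0.17 against a pooled SD within lines of 0.32, so the order of neighbouring lines was within the replicate error. The difference from M was 0.0094 ± 0.29 (SE) in D, 0.17 ± 0.29 in DB#1, 0.16 ± 0.31 in DB#2 and 0.13 ± 0.31 in DB#3. The other 2 Mitf probes gave -0.33 and -0.24 for D less M, and neither differed (adjusted p = 0.773 and 0.87, limma with every probe as a feature). They gave -0.045 and -0.064 in DB#1, -0.145 and -0.152 in DB#2, and 0.157 and 0.156 in DB#3. The sign in D, DB#1 and DB#2 thus depended on the probe. For DB#3 less DB#2 they gave 0.30 and 0.31, with no overlap of the arrays, against -0.021 on the brightest probe, and neither was called there.

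Tyr had the lowest levels in D, DB#1 and DB#3, and its 2 probes gave different sizes. On the brighter probe (A_66_P135323) the values were 4.02, 3.94 and 4.03 in M, 4.22, 3.60, 3.01 and 3.39 in D, 3.41, 3.68, 3.85 and 3.59 in DB#1, 4.01, 3.84 and 3.81 in DB#2, and 3.57, 3.17 and 3.65 in DB#3. The DB#1 and DB#3 arrays all lay below the M arrays, D replicate 1 lay above them, and DB#2 overlapped with M. The differences from M were -0.44 ± 0.22 (SE) in D, -0.36 ± 0.22 in DB#1, -0.11 ± 0.24 in DB#2 and -0.53 ± 0.24 in DB#3, with adjusted p = 0.471, 0.593, 0.993 and 0.44 (limma).

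On the dimmer Tyr probe (A_51_P102311), which was examined after its values were seen, the values were 0.39, 0.45 and 0.29 in M, -0.046, -0.54, -1.24 and -0.94 in D, -0.36, -0.58, -0.65 and -0.62 in DB#1, 0.49, 0.16 and 0.15 in DB#2, and -0.27, -0.50 and -0.72 in DB#3. Every array of D, DB#1 and DB#3 lay below every array of M and of DB#2, and M and DB#2 overlapped. With every probe as a feature of its own, this probe fell in D by 1.07 (95% interval -1.50 to -0.64, adjusted p = 0.00436 by limma), in DB#1 by 0.93 (-1.36 to -0.50, adjusted p = 0.0103) and in DB#3 by 0.88 (-1.34 to -0.41, adjusted p = 0.0347), that is to 0.477, 0.525 and 0.545 of the M level. In DB#2 the difference from M was -0.11 (-0.58 to 0.35, adjusted p = 0.969). The share of all probes called was 2.89% in D, 3.64% in DB#1, 3.23% in DB#2 and 2.63% in DB#3.

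The lines also differed from each other on this probe. It was higher in DB#2 than in D by 0.96 (adjusted p = 0.00643, with 6.17% of all probes called) and lower in DB#1 than in DB#2 by 0.82 (adjusted p = 0.023, with 5.3% called), and DB#3 less DB#2 was -0.76 (adjusted p = 0.0579). Among the 5 lines together the dimmer Tyr probe differed (adjusted p = 0.00225, limma, where 6.95% of all probes did). All 3 slides gave the same sign for D less M (-0.58, -1.70 and -1.33), DB#1 less M (-0.94, -0.82 and -0.99) and DB#3 less M (-1.01, -0.96 and -0.66). The fall in DB#3 was not called when M replicate 1, 2 or 3 or DB#3 replicate 4 or 5 was left out (adjusted p = 0.109, 0.144, 0.0864, 0.111 and 0.197), and that in DB#1 was not called without M replicate 2 (adjusted p = 0.0602). The DB#1 difference from DB#2 was not called without DB#1 replicate 2, 3 or 4 or any 1 of the DB#2 arrays, with an adjusted p up to 0.127, nor the DB#2 difference from D without DB#2 replicate 1 (adjusted p = 0.0514). The fall in D was called without any 1 of the 24 arrays, and fitting M and D arrays alone gave an adjusted p of 0.254 for the same difference. Both probes are assigned to 1 Tyr transcript, and the difference in size between them was not tested. On the mean of both probes, Tyr was called in D (-0.75, adjusted p = 0.0256).

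**Figure D2:**
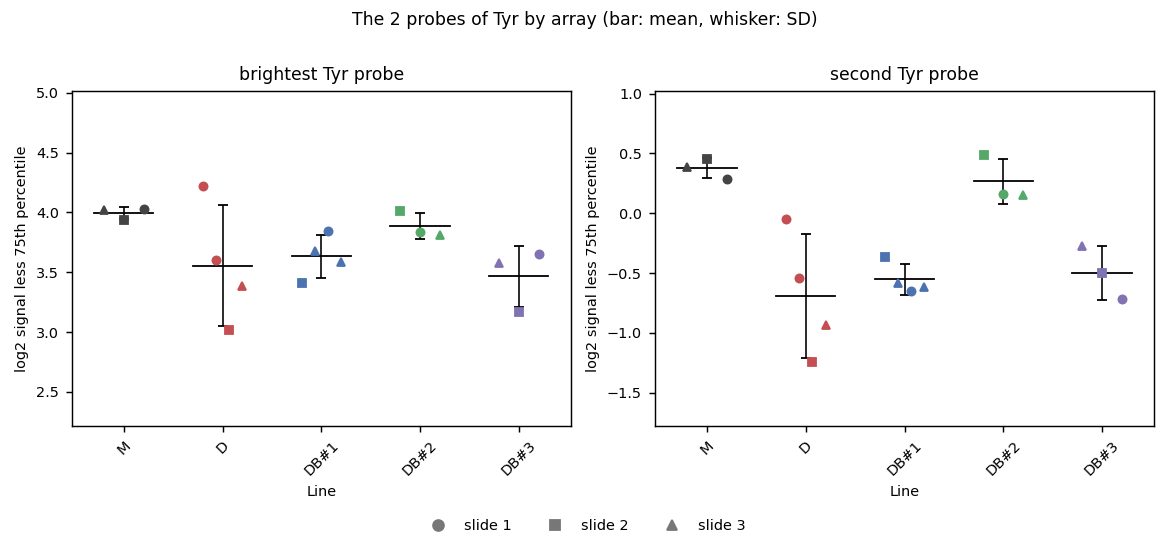
Normalised log2 signal (y axis) of the brighter and the dimmer Tyr probe on each melanoma array, by line (x axis), with the marker giving the slide, the bar the mean and the whisker the SD. On the dimmer probe all D, DB#1 and DB#3 arrays (-1.24 to -0.046) lie below all M and DB#2 arrays (0.15 to 0.49), and on the brighter probe D replicate 1 (4.22) lies above M.

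The other 2 enzymes varied little. Tyrp1 was 8.54 ± 0.10 in M (SD, n = 3), 8.39 ± 0.27 in D (n = 4), 8.58 ± 0.10 in DB#1 (n = 4), 8.54 ± 0.10 in DB#2 (n = 3) and 8.52 ± 0.20 in DB#3 (n = 3). Dct was 9.27 ± 0.13 in M, 9.27 ± 0.29 in D, 9.44 ± 0.026 in DB#1, 9.35 ± 0.093 in DB#2 and 9.42 ± 0.11 in DB#3. The 4 DB#1 arrays lay above the 3 M arrays for Dct, by 0.17 on average with a 95% interval of -0.13 to 0.46. For both genes the line means lay within 0.19 of each other, against pooled SDs within lines of 0.17. The narrowest intervals of all were those of Dct, whose difference from M in D lay between -0.30 and 0.30.

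Neither of the structural proteins, Pmel and Mlana, passed the test in any pair of melanoma lines. The Pmel arrays gave 9.14, 8.94 and 9.16 in M, 9.21, 8.77, 8.08 and 8.70 in D, 8.70, 8.87, 8.96 and 8.85 in DB#1, 9.26, 9.15 and 8.99 in DB#2, and 8.85, 8.75 and 8.98 in DB#3. D overlapped with M because D replicate 1 was above all M arrays, and the DB#1 and the DB#3 arrays all lay below those of DB#2. The difference of D from M was -0.39 ± 0.27 (SE, adjusted p = 0.689, limma) and that of DB#2 from D was 0.45 ± 0.27 (adjusted p = 0.45). Mlana was 9.30 ± 0.10 in M, 9.23 ± 0.36 in D, 9.35 ± 0.14 in DB#1, 9.37 ± 0.070 in DB#2 and 9.35 ± 0.16 in DB#3 (SD).

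Gpr143, the melanosomal receptor, gave the single call between melanoma lines on the brightest probes. Its values were 5.07, 4.72 and 4.97 in M, 5.29, 4.45, 4.11 and 4.46 in D, 4.25, 4.67, 4.74 and 4.54 in DB#1, 5.55, 5.07 and 4.97 in DB#2, and 4.41, 4.32 and 4.27 in DB#3. All DB#3 arrays lay below all DB#2 and all M arrays, and the DB#1 arrays lay below DB#2. Gpr143 was lower in DB#3 than in DB#2 by 0.86 ± 0.23 (SE), to 0.549 of its level, with an adjusted p of 0.0343 (limma, where 4.43% of all genes were called), and it was lower on 3 of 3 slides, by 0.56 to 1.23. The dimmer Gpr143 probe gave -0.80 (adjusted p = 0.252). The call was lost without DB#2 replicate 1 (-0.69, adjusted p = 0.189), DB#2 replicate 2 (adjusted p = 0.0726) and DB#3 replicate 3, 4 or 5 (0.0852, 0.106 and 0.124), and over 35 alternatives the adjusted p ran from 0.00114 to 0.254. For the other pairs, DB#1 less DB#2 was -0.65 (adjusted p = 0.093, 5.47% of genes called), DB#2 less D was 0.62 (adjusted p = 0.0991, 6.34% called), and DB#3 less M was -0.58 (adjusted p = 0.305). With slide as a block the first 2 of these passed (adjusted p = 0.0476 and 0.0403). They also passed without D replicate 1 (-0.65 and 0.86, adjusted p = 0.0189 and 0.00352, limma). Gpr143 was then called among the 5 lines as well (adjusted p = 0.00548). None of the 10 genes was called between DB#1 and D, DB#3 and D, or DB#1 and DB#3, where few genes were called at all (0.475%, 0.369% and 0.229%); 0 of the 10 had an unadjusted p under 0.05 in any of these 3 pairs.

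**Figure D3:**
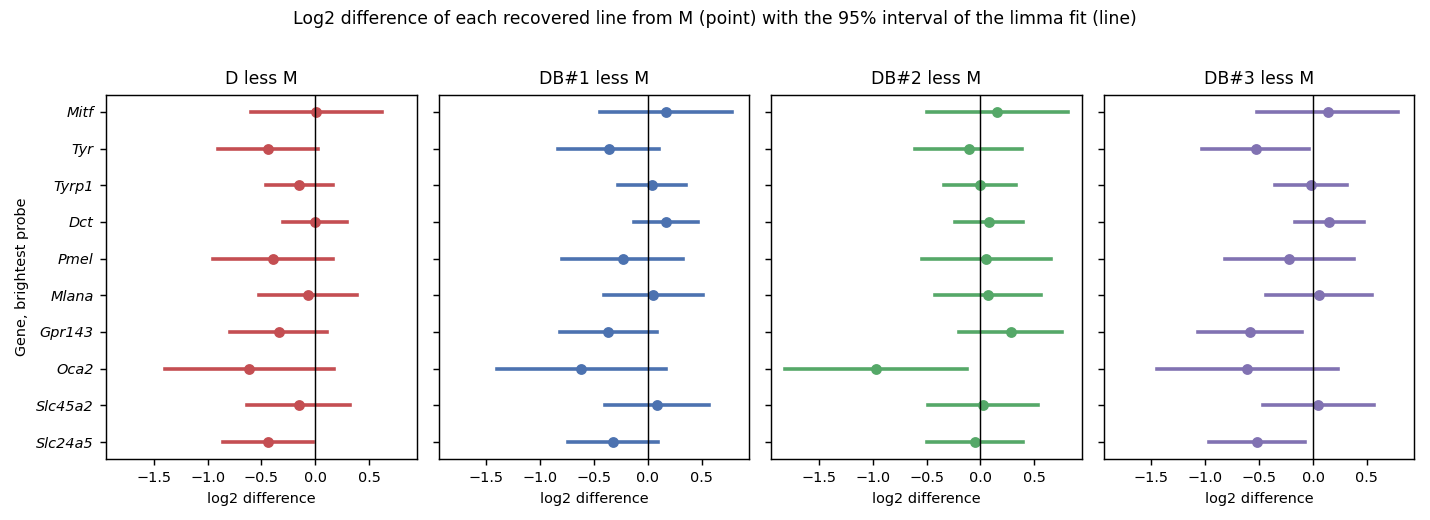
Log2 difference of D, DB#1, DB#2 and DB#3 from M (x axis) for the brightest probe of each pigment gene (y axis), with points for the estimate and lines for the 95% interval of the limma fit. Intervals that do not reach 0 are those of Slc24a5 in D, Oca2 in DB#2 (-0.97), and Tyr, Gpr143 and Slc24a5 in DB#3, and none of these passed after adjustment over all genes.

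The 3 transporters differed in spread. Oca2 had the widest, with 2.93, 2.22 and 2.33 in M, 3.38, 1.55, 1.02 and 1.57 in D, 1.88, 1.91, 1.95 and 1.76 in DB#1, 2.10, 1.28 and 1.18 in DB#2, and 2.41, 1.60 and 1.63 in DB#3. The DB#1 and DB#2 arrays all lay below M, and D replicate 1 was the highest of all 17. Oca2 differed from M by -0.61 ± 0.38 (SE) in D, -0.62 ± 0.38 in DB#1, -0.97 ± 0.40 in DB#2 and -0.61 ± 0.40 in DB#3, with adjusted p = 0.618, 0.587, 0.294 and 0.777 (limma). Without D replicate 1 Oca2 was called in D (-1.11, adjusted p = 0.0132) and, with a smaller estimate of the spread, in DB#2 (-0.97, adjusted p = 0.0315). Oca2 was then also called among the 5 melanoma lines (adjusted p = 0.0402, limma). Its dimmer probe gave -0.44, -0.59, -0.88 and -0.63 in the same order.

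Slc24a5, a cation exchanger, was 6.08, 5.68 and 6.03 in M, 6.09, 5.51, 4.97 and 5.41 in D, 5.34, 5.70, 5.77 and 5.62 in DB#1, 6.22, 5.80 and 5.63 in DB#2, and 5.47, 5.35 and 5.42 in DB#3. The 3 DB#3 arrays lay below all those of M and DB#2, and the other lines overlapped with M. The difference from M was -0.44 ± 0.20 (SE, adjusted p = 0.382, limma) in D and -0.52 ± 0.21 (adjusted p = 0.347) in DB#3. It was called in D without D replicate 1 (-0.63, adjusted p = 0.0459). DB#2 less D was also called without that array (0.59, adjusted p = 0.0422), but not with all arrays (0.39, adjusted p = 0.337). In DB#3, Slc24a5 and Gpr143 were both called when the percentile was taken over probes detected on all arrays (-0.57 and -0.64) or after quantile normalization (-0.64 and -0.68). Slc45a2 was 6.19 ± 0.45 in M, 6.03 ± 0.37 in D, 6.27 ± 0.17 in DB#1, 6.21 ± 0.41 in DB#2 and 6.24 ± 0.29 in DB#3 (SD), a spread of 0.24 between line means against a pooled SD of 0.34.

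In D as a whole 9 of the 10 genes had a negative difference from M, with a median of -0.25 against -0.012 over all 20145 genes tested. The 9 include Dct at -0.0013, and no share of all genes with a negative difference is given. The medians of the 10 were -0.097 in DB#1, 0.039 in DB#2 and -0.12 in DB#3, where all genes had 0.037, 0.017 and 0.029. The sign of the small differences was not stable: without scaling between arrays Dct, Tyrp1, Mlana and Slc45a2 were higher in D than in M by 0.024 to 0.18. The 10 genes are not independent of each other, since many of them varied together from array to array. Fewer pairs of genes did so without D replicates 1 and 3, as given below. The slide accounted for 4.57% (Oca2) to 53.7% (Mlana) of a gene's variance within lines, and a slide term takes up some variance by chance alone. With it the residual SD rose for Oca2 (0.607 to 0.650) and Gpr143 (0.312 to 0.319) and fell for the other genes.

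The pigment genes varied together from array to array. After each slide's mean was taken off, the 45 pairs of genes had a median Pearson r of 0.68 over the 17 melanoma arrays, from 0.22 (Dct with Gpr143) to 0.93 (Slc24a5 with Gpr143), and 38 of the 45 exceeded 0.5. These arrays share lines and scaling, so the values are a description. Without D replicates 1 and 3 the median was 0.39 over 15 arrays and 13 of the 45 exceeded 0.5. A set of 4 genes, picked after the values were seen, stayed together: among Tyr, Pmel, Gpr143 and Slc24a5 the 6 pairs had r = 0.83 to 0.93 over 17 arrays and 0.84 to 0.93 over 15. Dct went with these 4 at r = 0.22 to 0.56 over 17 arrays and at -0.32 to -0.25 over 15. Mitf had r = 0.53 with Tyr over 17 arrays and 0.012 over 15, and 0.86 and 0.68 with Dct.

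**Figure D4:**
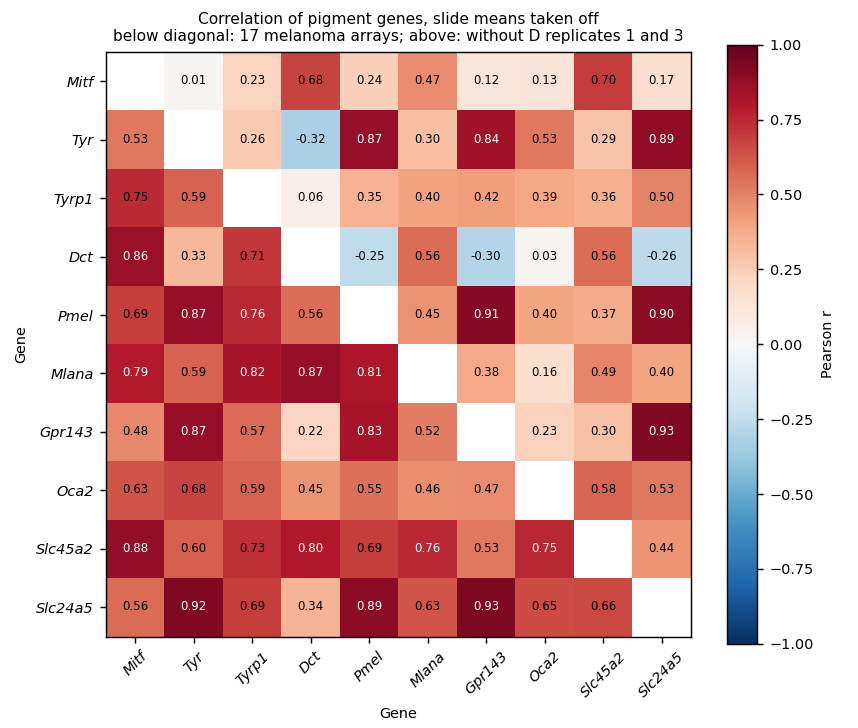
Pearson correlation (colour and number) between pigment genes (both axes) after slide means were taken off, below the diagonal over all 17 melanoma arrays and above it over the 15 without D replicates 1 and 3. Tyr, Pmel, Gpr143 and Slc24a5 keep r of 0.83 or more in both triangles, whereas Dct is at -0.25 or lower with these 4 above the diagonal.

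Among 11869 other genes well above background on all 17 melanoma arrays, those whose values went most closely with Mitf were Ccdc174, Dpm1, Tmed4, Capza2 and Mtch2, with r = 0.96 to 0.97 after slide means were taken off. None of them is a pigment gene, and without D replicates 1 and 3 their r was 0.82 to 0.89. For Tyr they included Msmo1, a sterol synthesis enzyme, Fundc1, the pigment gene Slc24a5 and Tmf1, with r = 0.92 to 0.93, and 0.89 to 0.94 without those 2 arrays.

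In the wider pigment pathway, Trpm1 was lower in D, DB#1 and DB#3. Of 46 listed genes, 1 of 40 tested was called in D, 3 of 41 in DB#1, 0 of 41 in DB#2 and 2 of 41 in DB#3, where 2.97%, 3.69%, 3.44% and 2.76% of all genes were. None of the 18 genes listed for melanosome biogenesis (the HPS, BLOC-1 and AP-3 subunits and Vps33a) was called in any of the 4. In the test among the 5 melanoma lines 1 of these 18 was called, where 7.19% of all genes were. Trpm1, a cation channel gene of melanocytes, was 4.55 ± 0.57 in M (SD, n = 3), 2.27 ± 1.25 in D, 1.20 ± 0.20 in DB#1, 3.46 ± 0.89 in DB#2 and 1.22 ± 0.83 in DB#3. The difference from M was -2.29 in D (adjusted p = 0.0369, limma), -3.35 in DB#1 (adjusted p = 0.0011) and -3.34 in DB#3 (adjusted p = 0.00274), a fall in all 3. Trpm1 has 6 probes, and only those well above background on every array of both lines compared are ranged here. Their differences ran from -2.29 to -0.074, -3.35 to -0.64 and -3.34 to -1.16. Kit, the stem cell factor receptor of melanocytes, rose in DB#1 by 0.93 (adjusted p = 0.0127). The remaining calls were of Lef1, a transcription factor of the Wnt pathway, which was higher in DB#1 by 1.49 (adjusted p = 0.039) and in DB#3 by 1.60 (adjusted p = 0.0472) but was not well above background on every M array; it is named here outside the rule for named genes, after its values were seen. The call of Trpm1 in D was lost when M replicate 1, 2 or 3 or D replicate 2, 3 or 4 was left out.

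Against the myeloid lines every pigment gene stood far higher in the melanoma lines. With 1 weight per line, 10 of 10 were higher (adjusted p of at most 7.02e-16 by limma). Of all 23751 genes tested, 7905 were called higher and 71.8% differed in either direction, and the median of all genes was -0.13. For none of the 10 did melanoma and myeloid arrays overlap, and no share of all genes without overlap is given. For Mlana, Tyrp1, Slc45a2, Gpr143 and Oca2 no probe was well above background on any of the 7 myeloid arrays, so that only a lower limit of the ratio holds, taken against the lowest signal that was well above background there. On this basis Mlana was at least 11300-fold higher, Tyrp1 at least 6480-fold, Slc45a2 at least 1290-fold, Gpr143 at least 461-fold and Oca2 at least 67.3-fold. Pmel was well above background on 3 of the 7 myeloid arrays (-3.20 and -3.45 in M0, -3.86 in J365), and with each myeloid array taken at no less than that lowest signal it was at least 6960-fold higher. Dct has no single size, since its probes differed: the brighter was not well above background on any myeloid array, whereas the dimmer one was on all 7, with means of -2.07 in M0 and -1.47 in J365, and stood 8.56 log2 units higher in melanoma, a 377-fold ratio of means with each line weighted equally.

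**Figure D5:**
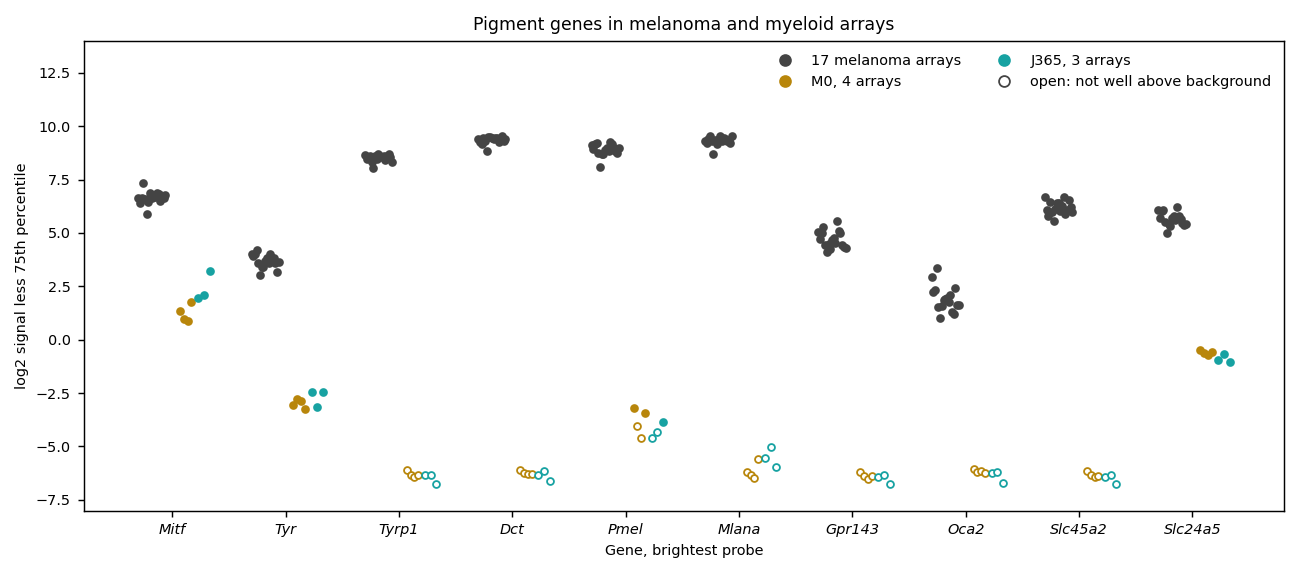
Normalised log2 signal (y axis) of the brightest probe of each pigment gene (x axis) on the 17 melanoma arrays and the 4 M0 and 3 J365 arrays, with open circles for arrays on which the probe was not well above background. Mitf, Tyr and Slc24a5 are filled on all 7 myeloid arrays, Pmel on 3, and the other 6 genes on none; levels of different genes are not comparable.

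Mitf, Slc24a5 and Tyr were the 3 genes read on all 7 myeloid arrays, at levels below melanoma by 4.83, 6.42 and 6.55 on the log2 scale. The probes of a gene did not agree in this: the dimmer Tyr probe was well above background on 0 of the 7 and the brighter one on 7, the reverse of the Dct probes. Whether these signals come from the named genes was not tested.

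In the myeloid lines Mitf was 1.36, 0.95, 0.88 and 1.77 in M0 and 1.97, 2.09 and 3.23 in J365. All J365 arrays lay above all M0 arrays, with J365 replicate 4 the highest. The difference was 1.19 ± 0.29 (SE), a 2.28-fold higher level in J365, with an adjusted p of 0.0477 (limma), and 1.47% of all genes were called. It was higher on 3 of 3 slides, by 0.73 to 1.90. The other 2 Mitf probes gave 0.71 and 0.66 (adjusted p = 0.42 and 0.547). The call was lost in 24 of 35 alternatives, with an adjusted p up to 0.424, and without J365 replicate 4 the difference was 0.79; among the arrays of these lines it was also lost without J365 replicate 3 or M0 replicate 1, 2 or 3 (adjusted p = 0.0568, 0.073, 0.156 and 0.179). Tyr and Slc24a5, the other 2 genes that could be tested there, differed by 0.30 ± 0.22 and -0.31 ± 0.20 (adjusted p = 0.882 and 0.82).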

How the data were processed

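Total RNA of 24 samples of 7 mouse lines was measured on single-colour Agilent arrays, 8 arrays on each of 3 slides, with every line on each slide. The deposited files hold intensity per spot from Agilent Feature Extraction 10.7.3.1 (submitters' processing notes), where the authors' software subtracted the background; the deposited series table holds the same values and no further normalization. Control spots and outlier spots were left out, spots of a probe averaged (56488 probes kept), log2 taken, and each array's 75th percentile subtracted. Probes were named through RefSeq accessions (29269 of 29567 NM accessions matched), and each gene was represented by its brightest probe over all arrays.

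Limma 3.58.1 in R 4.3.3 was fitted with 1 term per line on all 24 arrays (lmFit, eBayes, two-sided). A gene was tested if well above background on every array of at least 1 line compared. Benjamini-Hochberg adjustment was over all genes tested, with calls at an adjusted p under 0.05. The scripts were tested on simulated data. The 10 genes, the 46 pathway genes and the marker lists were chosen with earlier results of these data known. All 10 genes are named; of the pathway, up to 2 called rises and 2 called falls per comparison with M, if detected on all arrays of both lines. Of the 5 genes most like Tyr across arrays, 1 is not reported here. The alternatives were slide or replicate number as a block, quantile normalization, normexp on the median signal (offset 50; the mean signal was not used here), other percentiles or none, no filter, the mean over probes, only the lines compared, and leaving out arrays. Added after the data were seen were every probe as a feature, and slide as a block without D replicates 1 and 3. The number of arrays limits the precision, and no spot was saturated.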

Additional observations from a re-analysis of the deposited data

Results flagged for a closer look

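The difference between recovered lines itself was tested for 3 results that passed. Gpr143 was lower in DB#3 than in DB#2 (-0.86 on the log2 scale). The dimmer Tyr probe was higher in DB#2 than in D (0.96) and lower in DB#1 than in DB#2 (-0.82). Dixon's test marked no array in 25 groups of 4 arrays, of which chance would mark about 1 in 20. Each group was 1 probe in D, DB#1 or M0, and M, DB#2, DB#3 and J365 were not tested in this way. The test can miss an extreme array when another lies at the opposite end, as D replicates 1 and 3 did for Mitf.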

How the results depend on the processing

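All 10 pigment genes stayed higher in the melanoma than in the myeloid lines in each of 340 checks. Between lines, 63 of 1470 recomputed differences changed sign, all of them small and not called, and the cause was not tested. With slide as a block, Mitf in D less M was -0.019, and 1 gene was called in DB#2 less D, DB#1 less DB#2 and among the 5 lines. Whether replicate numbers pair the samples was not tested. The deviations of melanoma arrays from their line means were correlated between arrays of different lines. On different slides the mean r was -0.057 over 20 pairs of the same number and -0.29 over 57 pairs of different numbers. On the same slide it was 0.63 over 5 pairs and 0.51 over 33 pairs. The fit with the replicate block left out M0 replicate 4 and J365 replicate 4, whose titles give no replicate number. In it Tyrp1 was 0.092 and Mlana -0.014 in DB#3 less M, and 0 genes were called in DB#3 less DB#2 or J365 less M0. With quantile normalization, D less M was 0.061 for Dct, 0.024 for Mlana and -0.0085 for Mitf; DB#1 less M was -0.091 for Tyrp1, -0.030 for Mlana and -0.057 for Slc45a2; Slc45a2 in DB#2 was -0.11; and DB#3 less M was -0.055 for Mlana, -0.0010 for Mitf and -0.085 for Slc45a2. The calls were then 2 in DB#3 less M, 1 in DB#2 less D, 1 in DB#1 less DB#2 and 2 among the lines. With normexp, Tyrp1 in DB#1 was -0.061, Slc24a5 in DB#2 0.089 and the dimmer Tyr probe in DB#2 0.012. With the percentile over detected probes, Dct in D was 0.029, Tyrp1 and Mlana in DB#1 -0.016 and -0.0056, Pmel and Slc45a2 in DB#2 -0.0030 and -0.033, and Slc45a2 in DB#3 -0.0035, with 2 calls in DB#3 less M and 1 each in DB#2 less D, DB#1 less DB#2 and among the lines. Without scaling, D less M was 0.031 for Tyrp1, 0.18 for Dct, 0.11 for Mlana and 0.024 for Slc45a2, and DB#2 less M was 0.13 for Tyr, 0.23 for Tyrp1, 0.19 for Slc24a5 and 0.12 for the dimmer Tyr probe, with 1 call each in DB#2 less D, DB#1 less DB#2 and among the lines and 2 in DB#3 less DB#2. Fitting only the lines compared, or using no filter on dim probes, left 0 calls in DB#3 less DB#2 and in J365 less M0. With the mean over probes, Dct and Mitf in D were 0.090 and -0.19 and Mitf in DB#2 -0.047, with 1 call (Tyr) in D less M, 1 in DB#2 less D, 1 among the lines, 0 in DB#3 less DB#2 and 0 in J365 less M0. Without D replicates 1 and 3, Dct, Mlana and Mitf in D were 0.11, 0.034 and -0.034, with 1 call each in DB#2 less M, DB#2 less D, DB#1 less DB#2 and among the lines; with slide as a block as well, Dct in D was 0.085, with 1 call in each of those and 2 in DB#3 less M and in DB#3 less DB#2.

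Leaving out 1 array at a time gave 0 to 2 calls in D less M, DB#2 less D and among the lines, and 0 to 1 in DB#2 less M, DB#1 less DB#2, DB#3 less DB#2 and J365 less M0. Against M, the differences in D then ran from -0.071 to 0.14 for Dct, -0.34 to 0.096 for Slc45a2, -0.25 to 0.24 for Mitf and -0.17 to 0.10 for Mlana. In DB#1 they ran from -0.011 to 0.089 for Tyrp1, -0.0082 to 0.11 for Mlana and -0.11 to 0.34 for Slc45a2. In DB#2 they ran from -0.053 to 0.056 for Tyrp1, -0.22 to 0.077 for Slc24a5, -0.014 to 0.13 for Pmel and -0.21 to 0.28 for Slc45a2, and in DB#3 from -0.10 to 0.091 for Tyrp1, -0.14 to 0.30 for Slc45a2 and -0.027 to 0.13 for Mlana.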
